A study of Mus musculus with 12 samples.

Results

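Neutrophils carry proteases that digest bacteria and matrix, and they make inhibitors that hold those proteases in check. The inhibitors described here are Slpi, Wfdc17, Stfa2l1, Cstb and Serpinb1a, chosen by their gene names as the WAP domain, cystatin and serpin inhibitors of neutrophils. All 5 were found among the 11911 genes of the deposited table, and all 5 passed the filter on low values. They were read in 12 RNA-seq libraries of left ventricular neutrophils of mice. The genotype label was control for 6 libraries and LOY, for a lost Y chromosome in hematopoietic cells, for the other 6. Per the labels, each library held 800 cells positive for CD45.2, an allele of a leukocyte antigen, for the neutrophil antigen Ly6G and for red fluorescence (RFP), and lacked CD64, a receptor of macrophages. All 12 titles name a control bone marrow transplant (BMT) and all 12 treatment labels read control. The groups differ by the genotype label and by a code in the title, which ends in C for control and in KO for LOY libraries. The titles of the LOY libraries thus join a control transplant with a KO code. The sources used here give neither the strain, age and sex of the animals, nor how the Y chromosome was lost, the share of host cells left or whether each library came from a separate mouse. The p-values therefore measure the spread between these libraries.

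The genes come from WAP domain, cystatin and serpin families. WAP domain proteins are small, secreted and rich in cysteine: Slpi (secretory leukocyte protease inhibitor) blocks neutrophil elastase and cathepsin G, and Wfdc17 is a small secreted relative made by activated myeloid cells. Cystatins of the stefin type stay inside the cell and block cysteine cathepsins: Cstb (cystatin B) is the widely expressed stefin, and Stfa2l1 belongs to the stefin A cluster of rodents. Serpins trap a serine protease in an irreversible complex, and Serpinb1a, the mouse counterpart of human SERPINB1, blocks elastase, cathepsin G and proteinase 3 that leak into the cytosol.

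Values are reads scaled by the authors with 1 factor for each library, written as normalised reads, and levels of different genes are compared per kb of exon. The reads of the listed genes came to 6767108 to 12561174 per library. The Y-linked transcripts Ddx3y, Eif2s3y and Uty summed to 1032 to 1972 normalised reads across control libraries and 0 to 59.3 across LOY libraries, and no library went against its genotype label. All 14 neutrophil markers were in the table, and their sum ran from 245009 to 641673 normalised reads in control libraries, highest in control 8, and from 226084 to 425870 in LOY libraries. The 12 cardiomyocyte markers summed to 4022 to 7969 for control and 4429 to 61746 for LOY libraries, highest in LOY 10. The 10 macrophage markers summed to 7281 to 9376 and 4074 to 13883, again highest in LOY 10. The sums of the other marker lists, given as control and LOY ranges, were 1062 to 4097 and 2596 to 6477 for 10 endothelial genes, 2972 to 10539 and 5835 to 16383 for 8 fibroblast genes, and 2803 to 12257 and 2996 to 8616 for 6 B cell genes. For the 5 red cell and platelet genes found they were 13.6 to 9722 and 165 to 6986. Of the defining markers, Ly6g was at 0 in LOY 3, Ryr2 (cardiomyocyte) and Tie1 (endothelial) were at 0 in 6 libraries each, and Lum and Pdgfra (fibroblast) in 10 and 11.

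Sequence decides how surely a read can be given to one of these genes, and it does so least for Stfa2l1. Stfa2l1 (ENSMUSG00000059657, GRCm38 chromosome 16, 36156811 to 36161953, plus strand) lies in a cluster of stefin A genes, and its coding sequence of 312 bases was identical to that of Stfa2 at 301 positions (96.5%). The first 300 coding bases of both, from the GENCODE M21 annotation of GRCm38, are shown because the stretches between the differences are long enough to hold runs of 50 identical bases. They are written 5′ to 3′, and capitals mark the 11 positions at which the genes differ.
Stfa2l1: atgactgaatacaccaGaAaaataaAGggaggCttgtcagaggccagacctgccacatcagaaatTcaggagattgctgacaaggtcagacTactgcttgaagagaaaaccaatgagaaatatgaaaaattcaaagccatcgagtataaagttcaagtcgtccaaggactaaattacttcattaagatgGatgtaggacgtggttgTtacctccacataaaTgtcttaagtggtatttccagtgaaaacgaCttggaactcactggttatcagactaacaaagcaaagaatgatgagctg
Stfa2: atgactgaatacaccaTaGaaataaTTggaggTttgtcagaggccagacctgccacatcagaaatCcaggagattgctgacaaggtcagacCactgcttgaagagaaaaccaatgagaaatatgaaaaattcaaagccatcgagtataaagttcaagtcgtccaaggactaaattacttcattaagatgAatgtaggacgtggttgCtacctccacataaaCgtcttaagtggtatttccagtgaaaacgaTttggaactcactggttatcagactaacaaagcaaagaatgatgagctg

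Of the 370 stretches of 50 bases in the Stfa2l1 transcript, 91 (24.6%) also occur in a transcript of another gene, 62 of them in Stfa2 and 29 in Gm49652. Serpinb1a (ENSMUSG00000044734, chromosome 13, 32842092 to 32851185, minus strand) shared 64 of 2277 (2.81%), with Serpinb1b and Serpinb1c among the genes that hold them. Slpi (ENSMUSG00000017002, chromosome 2, 164354070 to 164389095, minus strand), Wfdc17 (ENSMUSG00000069792, chromosome 11, 83703991 to 83706268, plus strand) and Cstb (ENSMUSG00000005054, chromosome 10, 78425669 to 78427622, plus strand) shared 0 of 1126, 0 of 484 and 0 of 554. An exon of Slpi also contains the microRNA gene Mir7678, and no annotated gene overlaps the other 4. The sources used here do not give how reads that match several genes were counted, so the split between Stfa2l1, Stfa2 and Gm49652 is uncertain.

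The promoters of the most abundant members, Slpi and Wfdc17, are shown as the sequences upstream of the strongest signals described here. Each window runs from 250 bases before to 50 bases after the start of the RefSeq gene on GRCm38.p6, at chr2:164356458-164356757 on the minus strand for Slpi and chr11:83703806-83704105 on the plus strand for Wfdc17. RefSeq windows were matched for 3 of the 5 members (Slpi, Wfdc17 and Stfa2l1); Cstb and Serpinb1a are named only. Both strands were searched for TATAAA (the TATA box), TTNNGNAAT (C/EBP, a myeloid factor family), GAGGAAG (PU.1, another myeloid factor) and TGANTCA (AP-1), and capitals mark the matches, none of which overlap.
Slpi: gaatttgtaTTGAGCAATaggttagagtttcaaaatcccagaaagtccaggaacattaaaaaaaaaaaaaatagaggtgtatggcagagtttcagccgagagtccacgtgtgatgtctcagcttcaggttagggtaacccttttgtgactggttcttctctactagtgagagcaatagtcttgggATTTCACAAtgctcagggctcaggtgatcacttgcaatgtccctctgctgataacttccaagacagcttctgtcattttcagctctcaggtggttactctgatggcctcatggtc
Wfdc17: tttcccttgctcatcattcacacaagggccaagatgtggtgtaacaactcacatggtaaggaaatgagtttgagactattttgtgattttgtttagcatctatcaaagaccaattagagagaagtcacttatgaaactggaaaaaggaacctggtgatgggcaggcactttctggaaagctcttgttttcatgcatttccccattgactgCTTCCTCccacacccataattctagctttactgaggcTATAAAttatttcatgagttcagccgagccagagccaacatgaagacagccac

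The Slpi window held the C/EBP letters at bases 10 to 18 and, on the other strand, at bases 186 to 194. The Wfdc17 window held the TATA letters at bases 248 to 253 and the PU.1 letters, on the other strand, at bases 211 to 217. Those TATA letters begin 3 bases before the RefSeq start and run across it, so they are not shown to be a working TATA box. The GENCODE M21 gene Wfdc17 begins at 83703991, inside the window and upstream of both matches. The GENCODE M21 gene Slpi, on the minus strand, begins at 164389095, upstream of its whole window. What these windows hold thus depends on the annotation used. Among all 32851 windows of this length, 13.6% held the TATA letters, 11.5% the C/EBP letters, 13.6% the PU.1 letters and 7.81% the AP-1 letters. Among the 10859 windows of genes in the table the shares were 7.51%, 7.28%, 14.3% and 5.36%. The matches are descriptions of letters and say nothing about binding in these cells. None of the 4 motifs was found in the Stfa2l1 window.

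Slpi and Wfdc17 stood among the most abundant transcripts of these cells. By mean normalised reads over the 12 libraries Slpi was rank 35 and Wfdc17 rank 61 of the 11911 genes, followed by Stfa2l1 at rank 571, Cstb at rank 950 and Serpinb1a at rank 4089. Together the 5 took 0.513% ± 0.173 of the reads of the listed genes (SD, n = 12), and Slpi and Wfdc17 made up 82.8% to 95.3% of that sum in every library. Per kb of exon the order changed at the top. Wfdc17, a short transcript, had 29210 ± 15574 normalised reads per kb and Slpi 18782 ± 8256 (SD, n = 12), and their order did not hold beyond their spread, since Wfdc17 was the higher in 7 of 12 libraries. Stfa2l1 followed at 4661 ± 2466, Cstb at 1915 ± 772 and Serpinb1a at 94.5 ± 70.5 normalised reads per kb (SD, n = 12). Each of these lower steps had the same direction in 12 of 12 libraries.

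**Figure D1:**
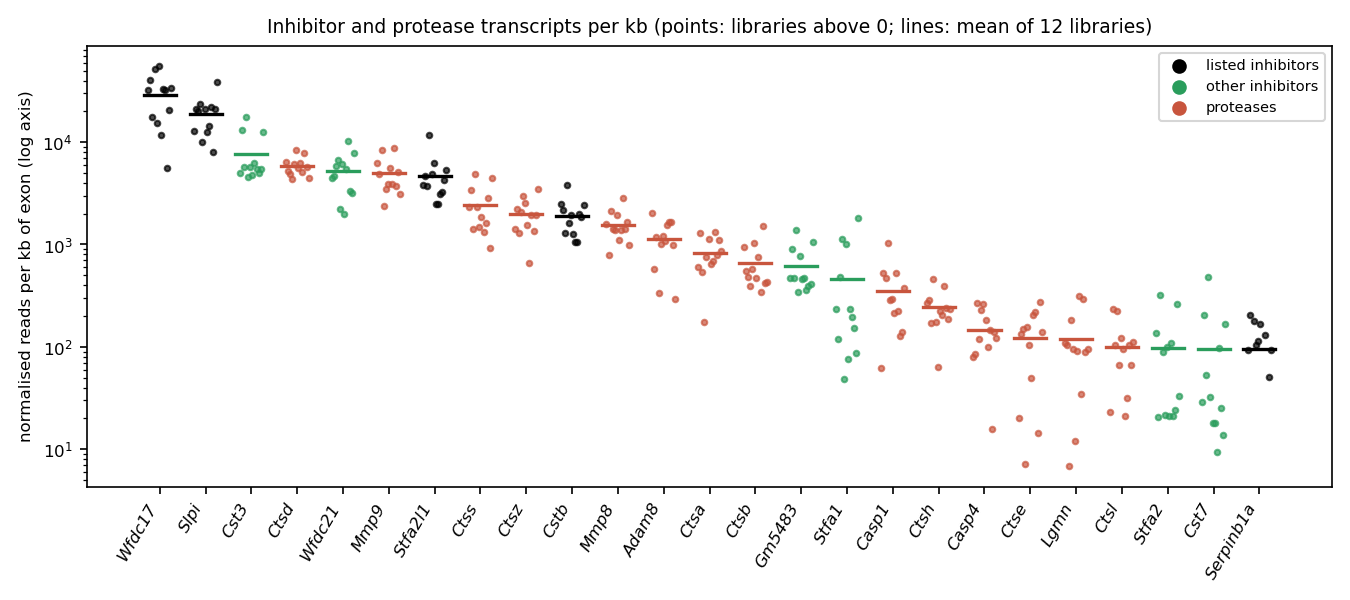
Normalised reads per kb of exon on a log axis for the 24 most abundant inhibitor and protease genes above 0 in all 12 libraries, with Serpinb1a at the right end; black marks the 5 inhibitors, green other inhibitors and red proteases, points are libraries above 0 and lines are means of 12 libraries. The means of Wfdc17 (29210) and Slpi (18782) lie above that of every protease plotted, and the mean of Serpinb1a (94.5) lies lowest.

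The proteases that these inhibitors bind were unevenly represented. Elane, Prtn3 and Ctsg, which encode elastase, proteinase 3 and cathepsin G, the targets of Serpinb1a and, but for proteinase 3, of Slpi, are not listed in the table. Of the 9 serine proteases in the fixed list only Prss57 and Prss16 are listed, with 144 and 61.8 normalised reads on average, and neither passed the filter. The cysteine cathepsins, targets of the stefins, ranged widely, and 4 of the 11 (Ctsf, Ctsk, Ctso and Ctsw) did not pass the filter. The most abundant, Ctss and Ctsz, had 2410 and 1964 normalised reads per kb on average, near the 1915 of Cstb, and Ctsb had 659, whereas Ctsf had 4.86. Among the remaining proteases the aspartic protease Ctsd had 5866 and the gelatinase Mmp9 4949 normalised reads per kb. The other cystatin of high level was Cst3 (cystatin C, secreted), at 7603 normalised reads per kb, and the other WAP gene of high level was Wfdc21, at 5171.

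The comparison of LOY with control libraries asked whether the inhibitors differed with the genotype label, and none passed the test. limma on log2(normalised reads + 1), fitted over 6951 genes, called 0 of the 5 at an adjusted p of 0.05, against 0.0288% of all genes tested (Acbd4, higher, and Ddx3y, lower), and 0 of the 5 had an unadjusted p below 0.05, against 4.37% of all genes. edgeR called 0 of the 5 at the adjusted threshold (0.00% of all genes it tested) and 0 at an unadjusted p below 0.05 (1.84%). DESeq2 called 0 of the 5 at the adjusted threshold (3.12% of all genes it tested), with 1, Stfa2l1, at an unadjusted p below 0.05 (10.1%). All 5 log2 fold changes in limma were negative, against 49.6% of all genes tested, but that of Slpi turned positive with quantile normalization, with both count tools and in 7 of the 12 fits that left out 1 library. Their median was -0.67, against 0.0081 over all genes. The 2 groups overlapped for every one of the 5 inhibitors, as they did for all but 0.201% of the genes tested. In bulk libraries, fewer cells of a type and less RNA per cell cannot be told apart.

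Slpi was read at 11755 normalised reads in the lowest control library, 24307 at the median and 27827 in the highest. In the LOY libraries the lowest stood at 9370, the median at 20808 and the highest, LOY 15, at 46018. The LOY range enclosed the control range at both ends. The means were 21371 ± 6334 and 22953 ± 12929 (SD, n = 6 each), with a log2 fold change of -0.015 (SE 0.34, 95% interval -0.74 to 0.71, limma adjusted p = 0.99987). The interval leaves out a 2-fold change in either direction. The lowest Slpi value of all was in LOY 10, the library with the highest sum of cardiomyocyte markers (61746), whose part in the result was not tested. Without LOY 10 the log2 fold change of Slpi was 0.21.

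Wfdc17 ran from 8193 through a median of 19530 to 29877 normalised reads in the control libraries. In the LOY libraries it ran from 2966 in LOY 10 through a median of 14054 to 18073 in LOY 15. All 6 LOY libraries lay below the control median, and control 2, control 7 and control 11 lay within the LOY range. The means were 18985 ± 9068 and 12153 ± 6431 (SD, n = 6 each), with a log2 fold change of -0.73 (SE 0.47, 95% interval -1.74 to 0.27, limma adjusted p = 0.997). Without LOY 10 the log2 fold change was -0.38. The ratio of Slpi to Wfdc17 reads, which no library factor touches, had a median of 1.08 for control and 2.29 for LOY libraries, with ranges of 0.829 to 2.57 and 0.962 to 3.16 that overlapped.

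Stfa2l1 came closest to the threshold of the 5. It had 1567 normalised reads in the lowest control library, 1997 at the median and 4867 in the highest, control 8. In the LOY libraries it had 1050 at the lowest, 1334 at the median and 2248 at the highest, LOY 15. The lowest LOY libraries (LOY 3, 4, 5 and 10, 1050 to 1355) lay under every control library, while LOY 14 (1775) and LOY 15 lay within the control range. The means were 2440 ± 1250 and 1466 ± 466 (SD, n = 6 each), with a log2 fold change of -0.67 (SE 0.33, 95% interval -1.37 to 0.038, unadjusted p = 0.0618, adjusted p = 0.997 in limma). Without control 8, which also held the highest sum of neutrophil markers, it was -0.44. In the fit scaled to that sum, chosen after seeing the data, it was -0.41, while the median of all genes tested moved to 0.25. That scaling divides every gene of a library by the same factor, so it moves abundant genes alike. The marker sum averaged 408145 ± 135163 in control and 336296 ± 80697 in LOY libraries (SD, n = 6 each). The cause of that difference was not tested. The authors' deposited table gives Stfa2l1 a log2 fold change of -0.73, a p of 0.049985 and an adjusted p of 0.497. That table calls 3.12% of the genes with an adjusted p. Its log2 fold change and p for Stfa2l1 are those of DESeq2 on the recovered reads, so they are not a second test. Summing Stfa2l1 with its near copy Stfa2, which held 0.496% to 8.78% of the pair, gave a difference of -0.67 in mean log2 as well. Gm49652 was not part of that sum.

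Cstb, the other stefin, had 782 normalised reads in the lowest control library, 1242 at the median and 2280 in the highest, again control 8. In the LOY libraries the lowest stood at 636, the median at 942 and the highest, LOY 15, at 1479. The control library with the least, control 7, exceeded LOY 3, 4 and 5 only. The means were 1337 ± 526 and 972 ± 347 (SD, n = 6 each), with a log2 fold change of -0.45 (SE 0.36, 95% interval -1.21 to 0.31, limma adjusted p = 0.997), and -0.28 without control 8. The ratio of Stfa2l1 to Cstb reads averaged 1.84 ± 0.465 for control and 1.56 ± 0.309 for LOY libraries (SD, n = 6 each), with ranges that overlapped.

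Serpinb1a was either read at over 100 normalised reads or not at all. In 5 control libraries it stood at 213 to 468 normalised reads, with 0 in control 7, and in 4 LOY libraries at 117 to 388, with 0 in LOY 4 and LOY 10. A count of 0 allows up to 2.12 to 3.49 normalised reads in those 3 libraries (3 reads each, counting error only). The means were 266 ± 165 and 169 ± 159 (SD, n = 6 each). The log2 fold change of -1.63 (SE 2.00, 95% interval -5.93 to 2.66, limma adjusted p = 0.999) rested on the libraries at 0: it was -3.01 without control 7 and -0.59 without LOY 4. DESeq2 and edgeR on the reads gave -0.65 and -0.62. Its residual SD of 3.77 on the log2 scale was larger than that of most genes, with 8.66% of the genes tested above it, whereas 79.7% to 95.7% of the genes tested varied more than the other 4 inhibitors.

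**Figure D2:**
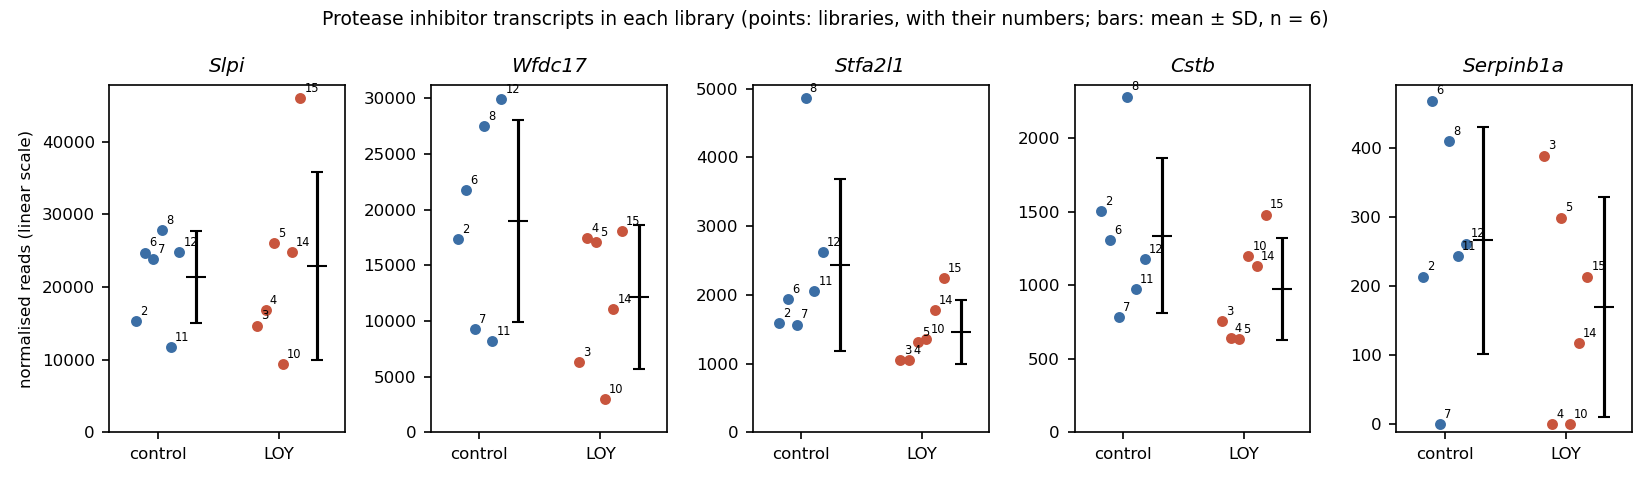
Normalised reads of the 5 inhibitors on linear axes, 1 panel per gene, with points for libraries (their numbers beside them) and bars for the mean ± SD of 6 libraries per group. The groups overlap in every panel; control 8 stands alone for Stfa2l1 (4867) and Serpinb1a is at 0 in control 7, LOY 4 and LOY 10.

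Other inhibitor genes were compared in 4 lists, and no member was called in limma. Of 9 other WAP genes 2 were tested and both had negative log2 fold changes, Wfdc21 -0.043 (SE 0.41) and Wfdc18 -0.74 (SE 1.96); these genes neighbour Wfdc17 on chromosome 11. Neither has a firm direction, since the authors' deposited table gives 0.095 and 0.47 and the LOY means were the higher, 2318 against 2170 and 83.5 against 60.1 normalised reads. Of 13 other cystatins and stefins 7 were tested, 6 negative and 1 positive, with a median of -0.53. Cst3 stood at -0.27 (SE 0.36), Gm5483 of the stefin A cluster at -0.41 (SE 0.40) and Cst7, an inhibitor of cathepsin C, at -1.05 (SE 1.22). Of 25 other serpins only 3 were tested, the thrombin inhibitor Serpine2 at 1.497 (SE 1.38), the intracellular serpin Serpinb6a at 1.95 (SE 1.81) and Serping1, the C1 inhibitor, at -0.24 (SE 2.20), for which the authors' deposited table gives 0.21. Of 15 genes of other inhibitor families 5 were tested, 4 negative and 1 positive. The calpain inhibitor Cast stood at -0.57 (SE 0.40), the metalloprotease inhibitor Timp2 at -1.72 (SE 1.41) and Itih5, a hyaluronan-binding chain of the inter-alpha-trypsin inhibitor family, at 4.63 (SE 1.80), with an unadjusted p of 0.0218 and an adjusted p of 0.997 in limma. Itih5 was at 0 in 4 libraries, and the authors' deposited table gives it 1.58 with a p of 0.368.

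No protease was called in limma either. Of 11 cysteine cathepsins and legumain 7 were tested, 5 negative and 2 positive, with a median log2 fold change of -0.31. Cathepsin B (Ctsb) averaged 4022 ± 1578 normalised reads for control and 3956 ± 2647 for LOY libraries (SD, n = 6 each), and cathepsin S (Ctss) 3596 ± 1801 and 2949 ± 1742. Legumain (Lgmn) stood at 1.20 (SE 1.00) and Ctsl at -0.73 (SE 0.65). Of 21 other myeloid proteases 16 were tested, 11 positive and 5 negative, with a median of 0.34. Ctsd averaged 13845 ± 3320 normalised reads for control and 13739 ± 2770 for LOY libraries (SD, n = 6 each), a log2 fold change of -0.0019 (SE 0.20). Mmp9 averaged 17204 ± 7664 and 17828 ± 7254, a log2 fold change of 0.084 (SE 0.31). The membrane protease Adam9 stood at 3.92 (SE 1.51, unadjusted p = 0.0211, adjusted p = 0.997 in limma) and the neutrophil metalloprotease Mmp25 at -3.62 (SE 2.00). Mmp25 was at 0 in 3 libraries, and the authors' deposited table gives it -0.68 with a p of 0.689. Adam9 was above 0 in only 8 libraries. It averaged 3.70 ± 6.97 normalised reads for control and 146 ± 215 for LOY libraries (SD, n = 6 each). The fold change of Adam9 thus rests on very low control values. For Adam9 the authors' deposited table gives 5.29 with an adjusted p of 0.0755.

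**Figure D3:**
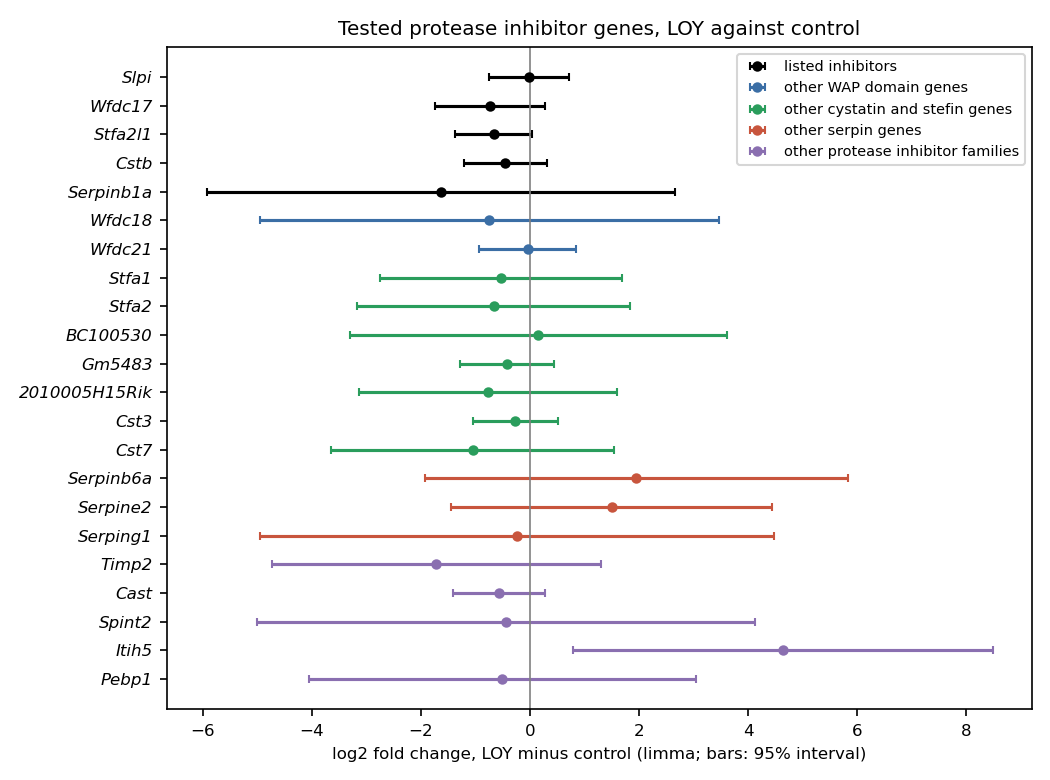
Log2 fold change, LOY minus control, of the 22 tested inhibitor genes in limma, with 95% intervals and 1 colour per list. The intervals of the 5 inhibitors described include 0, Slpi lies at -0.015 and Stfa2l1 reaches 0.038 at its upper end, and Serpinb1a has an interval of -5.93 to 2.66.

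The 5 inhibitors were then compared with each other across the 12 libraries, over 10 pairs. Stfa2l1 and Cstb varied together, with r = 0.812 (permutation p = 0.00147, adjusted p = 0.0147) and rho = 0.706 (permutation p = 0.0132, adjusted p = 0.0857), each test two-sided with 100000 resamples. Within the 6 control libraries r was 0.735 and within the 6 LOY libraries 0.833. Without control 8 and LOY 3, the libraries farthest from the median of Stfa2l1, r was 0.631. Without control 8 alone r was 0.672 (adjusted permutation p = 0.131) and without LOY 4 alone 0.775 (adjusted permutation p = 0.0529), so the call, though not the direction, was lost without either library. Slpi and Wfdc17 gave r = 0.698 (permutation p = 0.0113, adjusted p = 0.0565) and rho = 0.685 (permutation p = 0.0171, adjusted p = 0.0857), with 0.648 within control and 0.811 within LOY libraries. Without LOY 10 and control 11, the libraries farthest from the median of Slpi, r was 0.391. Without LOY 10 alone r was 0.518 (adjusted permutation p = 0.254) and without control 11 alone 0.682 (adjusted permutation p = 0.113). The pair passed the threshold without control 2 (adjusted permutation p = 0.0387), control 7 (0.0461) or LOY 15 (0.0289). The other 8 pairs had r of 0.256 to 0.539 and adjusted permutation p of 0.242 to 0.422. All 10 pairs thus had a positive r. The permutation test cannot tell a relation of 2 genes from what all transcripts of a library share, and r over all gene pairs was not computed. Cstb was closer to Rps29 (r = 0.888) and Stfa2l1 to Ddx5 (r = 0.896) than to each other.

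**Figure D4:**
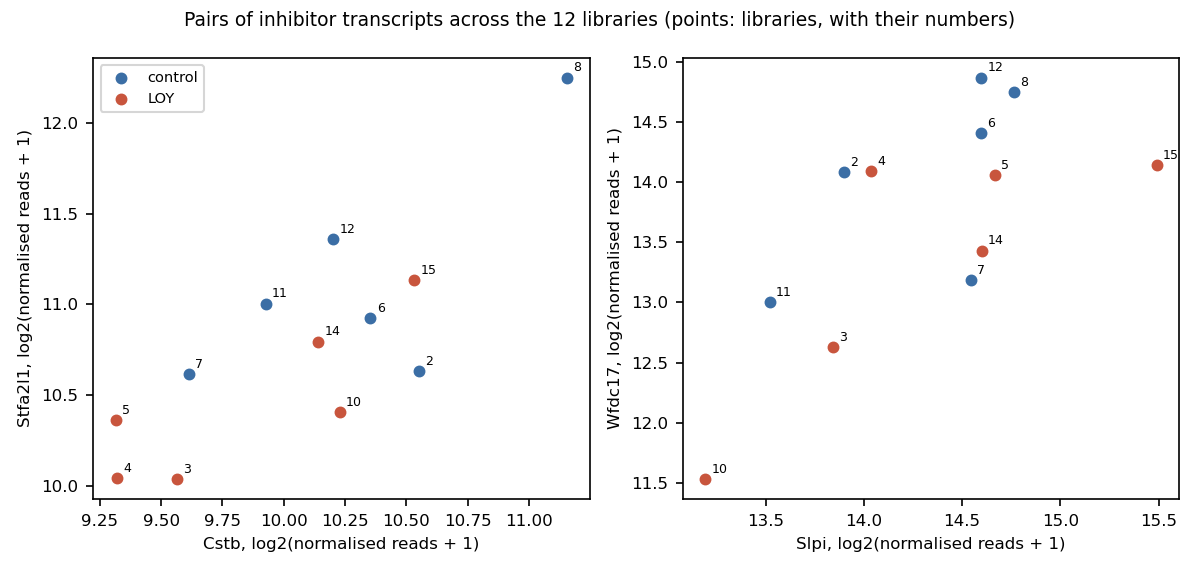
Log2(normalised reads + 1) of Stfa2l1 against Cstb and of Wfdc17 against Slpi, with numbered points for control (blue) and LOY (red) libraries. Control 8 lies at the upper right of the stefin pair (r = 0.812) and LOY 10 at the lower left of the WAP pair (r = 0.698).

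The transcripts most like each inhibitor were ranked by r of log2(normalised reads + 1) over the same 12 libraries, as a description with no test: the points share their library, its depth and its amplification. For Slpi they were Cyba, a subunit of the NADPH oxidase (r = 0.932), Arpc3 of the actin-nucleating Arp2/3 complex (0.930) and the calcium-binding protein gene S100a11 (0.909). For Wfdc17 they were the splicing factor gene Luc7l (0.903), Gm11346 (0.894) and 1700047I17Rik2 (0.872). For Stfa2l1 they included the RNA helicase gene Ddx5 (0.896) and the elongin C gene Eloc (0.892). For Cstb all 3 were ribosomal protein genes of the small subunit, Rps29 (0.888), Rps18 (0.877) and Rps19 (0.875). For Serpinb1a they were H2-DMb1 (0.929), Ube2d1 (0.909) and Bap1 (0.905), with lower rank correlations of 0.725, 0.656 and 0.563.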

How the data were processed

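RNA was sequenced from 800 sorted cells per library with the SMART-Seq v4 kit and Nextera XT, per the labels' protocols; this chemistry marks neither strand nor molecules. The submitters' processing notes name STAR 2.5.2b, featureCounts, Subread 1.5.2, Trimmomatic 0.36 and bcl2fastq 2.17, with the build GRCm38 (mm10). The signal values the authors deposited are read counts scaled with 1 factor for each library: 100% of them came out as whole reads (tolerance 0.01), and the factors equalled DESeq2's size factors. The deposited table holds the authors' own log2 fold change, p-value and adjusted p-value too; the sources used here do not name their tool.

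The 6951 genes that reached 10 normalised reads in 6 or more libraries were tested with limma 3.58.1 (trend, robust) on log2(value + 1), LOY against control, all 12 libraries, with Benjamini-Hochberg adjustment over all genes tested at 0.05. Alternatives were DESeq2 1.42.0 and edgeR 4.0.16 (quasi-likelihood, TMM) on the recovered reads, quantile normalization, other filters and pseudocounts (0.5 and 5), array weights and each library left out. Scaling to the neutrophil marker sum was chosen after seeing the data. Exon lengths and coordinates are from GENCODE M21. The fits were tested on simulated data.

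The members and lists were chosen with earlier results of these data known. Each list is given by its counts, with values for the 2 tested genes of highest mean and the 2 of smallest p; like genes are the 3 of highest r, of which 1 is not reported here. The 95% intervals come from the spread between libraries in limma, and floors of 3 reads cover counting error only.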

Additional observations from a re-analysis of the deposited data

Results flagged for a closer look

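Stfa2l1 in control 8 stood far from the other control libraries, at 4867 normalised reads, where the next highest, control 12, had 2625. The gap exceeded Dixon's 95% critical value for 6 samples (0.625). Among the 10 groups of 6 libraries examined, 5 inhibitors in each genotype, it was the only one, and chance flags about 1 in 20. The rule was applied to normalised reads, and what it flags depends on that scale. As log2(normalised reads + 1), control 8 stood closer to the others, at 12.2, with control 12 at 11.4 and the lowest, control 7, at 10.6. On that scale Serpinb1a in control 7, at 0, lay far below the other control libraries, at 7.74 to 8.87. Control 8 was also the highest library for Cstb, at 2280 normalised reads, and for the neutrophil marker sum, at 641673.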

How the results depend on the processing

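No inhibitor passed the adjusted threshold under any of the 21 alternatives run for each, and Wfdc17, Stfa2l1, Cstb and Serpinb1a had a negative log2 fold change in all 21. The other filters left each fold change as it was by design, and the pseudocounts hardly moved those of the abundant genes. Such alternatives could not change a sign. Slpi turned positive in 11: at 0.052 with quantile normalization, 0.10 with DESeq2, 0.11 with edgeR, 0.24 when scaled to the neutrophil marker sum, and in fits that left out control 6 (0.040), control 7 (0.030), control 8 (0.074), control 12 (0.041), LOY 3 (0.078), LOY 4 (0.039) or LOY 10 (0.21). With 1 library left out Slpi ran from -0.25 to 0.21, Wfdc17 from -0.94 to -0.38, Stfa2l1 from -0.80 to -0.44, Cstb from -0.59 to -0.28 and Serpinb1a from -3.01 to -0.59. Scaling to the neutrophil marker sum, chosen after seeing the data, moved the median of all genes tested to 0.25, and the positive value of Slpi lies within that shift; Wfdc17 stood at -0.48, Stfa2l1 at -0.41, Cstb at -0.20 and Serpinb1a at -1.48. Stfa2l1 had an unadjusted p below 0.05 in limma without control 2 (0.0455), control 7 (0.0439) or LOY 15 (0.0301), with adjusted p of 0.945 to 0.988.

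The count of genes called was 2 with limma, 1 with quantile normalization, 303 with DESeq2, 0 with edgeR (130 at an unadjusted p below 0.05), 0 with no filter (466) and 0 with a mean of at least 50 (327), and 0 to 4 with 1 library left out. The cause was not tested. The count of pairs of inhibitors past the threshold was 1, and 0 to 2 with 1 library left out. No paired analysis was possible because the groups share no replicate number. Depth limits what a 0 of Serpinb1a means to under 2.12 to 3.49 normalised reads. Among the libraries at 0, LOY 4 was the shallowest of all libraries, with 6767108 reads of listed genes. Control 7 and LOY 10, also at 0, had 10193931 and 10203723, so they were not the shallowest.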

Other observations

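Some inhibitor and protease genes of the fixed lists were read in too few libraries to pass the filter of the limma fit, and 4 of them were chosen here after their values were seen. Timp3, an inhibitor of metalloproteases that is bound to the matrix, was at 10 or more normalised reads in 4 LOY libraries and 1 control library, with 307 ± 296 against 8.25 ± 19.5 normalised reads (SD, n = 6 each). Ctsk, cathepsin K, a collagen-degrading cysteine protease, was at 10 or more in 3 LOY libraries and 1 control library, at up to 714 and 17.0 normalised reads. Mmp14, a membrane metalloprotease, was at 10 or more in 3 LOY libraries, at up to 392, and in 0 control libraries, at up to 2.84. Serpina3g, a serpin of activated leukocytes, went the other way, at 10 or more in 3 control libraries (up to 430.4) and 1 LOY library (27.7). The authors' deposited table, which calls 3.12% of the genes with an adjusted p, gives an adjusted p of 0.0222 for Mmp14 (log2 fold change 6.86), and of 0.0756 for Timp3, 0.0962 for Ctsk and 0.571 for Serpina3g. The LOY libraries with Mmp14 were LOY 3, 10 and 15, which had the highest sums of cardiomyocyte markers (13986, 61746 and 13070). Control libraries reached at most 7969. LOY 4 and LOY 14 also exceeded that (10880 and 11918), with Mmp14 at 1.16 and 0. The part of that sum in the Mmp14 values was not tested. The sum of the fibroblast markers was 4751 to 16383 in the 5 libraries with 10 or more Timp3 reads (LOY 3, 4, 5 and 10 and control 12) and 2972 to 10539 in the other 7, ranges that overlap, and its part in these values was not tested.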
